A study of Mus musculus with 8 samples.

Results

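Immature neuron genes of adult neurogenesis were followed in the hippocampus of mice given mild exercise, astaxanthin or both. They are the 9 genes Dcx, Neurod1, Neurod2, Sox4, Sox11, Calb2, Tubb3, Igfbpl1 and Stmn1, out of 20145 genes with a symbol on the array. All probes with one of these symbols were taken, 15 of 55681 probes that are not controls. The series title asks about leptin of the hippocampus and the neurogenesis and memory seen when running and astaxanthin are combined.

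All mice were male C57BL/6J, 11 weeks old. AX+ME mice ran on a treadmill at mild intensity and ate food with an astaxanthin powder, AX mice ate that food and stayed sedentary, ME mice ran on a placebo diet, and SED mice were sedentary on the placebo diet. The powder made up 0.5% of the food in every group, and 2% of the astaxanthin powder was astaxanthin, a red carotenoid. Each group had 8 mice and is represented by 2 samples, replicate 1 labelled with the dye Cy3 and replicate 2 with Cy5. How 8 mice became 2 samples is not given in the sources used here, and the spread behind each p-value is that between samples, possibly only technical. RNA came from ground whole hippocampus, in which fewer cells of a type and less RNA per cell cannot be told apart.

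In the dentate gyrus, stem cells of the subgranular zone make new neurons throughout adult life. Newborn neurons pass through an immature stage in which they extend processes and carry proteins of a growing cytoskeleton, such as doublecortin, before they become granule cells. Basic helix-loop-helix and Sox transcription factors switch on the genes of that stage, and Sox4 and Sox11 are known to act on Tubb3 and Dcx. Several of the 9 genes are not confined to immature neurons: Neurod2, Tubb3 and Stmn1 are also expressed by mature neurons, and Calb2 by mossy cells and interneurons.

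The promoters of Tubb3 and Dcx are shown because both genes and both Sox factors are among the 9. RefSeq's table for GRCm38.p6 held 7 promoter entries for 6 of the 9 genes. Each window is the 250 bases before a start, read in the gene's direction, 5′ to 3′, and capitals mark the Sox core ACAANG on either strand. The motif was chosen after these windows were read. The Tubb3 window is chr8:123411303-123411552 on the plus strand, and the Dcx window is chrX:143933125-143933374 on the minus strand.
Tubb3: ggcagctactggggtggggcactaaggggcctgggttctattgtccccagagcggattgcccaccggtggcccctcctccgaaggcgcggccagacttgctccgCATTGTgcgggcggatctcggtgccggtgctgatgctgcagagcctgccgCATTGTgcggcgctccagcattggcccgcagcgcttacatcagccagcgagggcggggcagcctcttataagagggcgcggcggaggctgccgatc
Dcx: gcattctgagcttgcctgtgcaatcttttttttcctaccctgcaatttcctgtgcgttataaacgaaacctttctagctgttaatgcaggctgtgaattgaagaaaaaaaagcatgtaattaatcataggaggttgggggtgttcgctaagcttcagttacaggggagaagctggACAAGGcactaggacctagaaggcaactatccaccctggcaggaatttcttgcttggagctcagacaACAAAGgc
Each of these windows held 2 matches. The window of a second Dcx start, chrX:143933220-143933469, held 0, as did those of Neurod1, Neurod2, Sox4 and Sox11. Of 32851 promoter windows of this length, 36.3% held the Sox core. The E-box CANNTG, which basic helix-loop-helix factors bind, was matched in 66.2% of all windows, and among these genes 3 times in Neurod2, 2 times in Sox11, 1 time each in Neurod1 and Sox4, and 0 times in Tubb3 and Dcx. A match is only a match of letters.

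Levels are log2 values of the processed spot signal over the 75th percentile of its array. A level of 0 is that percentile, and levels of different probes are not comparable. Of the 15 probes, 14 were marked well above background by the scanner software on each array of some group and were tested, and 13 of them on all 8 arrays. The brightest probe stands for a gene, and others are given beside it. Both SED arrays carried dim areas in array columns below 70. Shares here are of spots well above background on the other arrays of the same dye, from processed signals. In those columns, 9.21% and 12.0% of them were at least 0.8 log2 lower on SED replicates 1 and 2 than on those arrays. On the other 6 arrays this share was at most 0.812% there, and from column 70 on it was 0.496% and 0.257% on the SED arrays. These signals had already been multiplied by the scanner software with a smooth factor, called detrending. For tested probes of the 9 genes it ran from 0.881 to 1.12 on the other arrays and from 0.776 to 2.06 on SED arrays. Of the 15 probes, 10 lay below column 70. Dcx, Sox11, Calb2, Igfbpl1 and Stmn1 had probes only there. On the slide, rows hold the dyes and columns the groups. Group and slide position cannot be told apart.

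None of the 9 genes passed limma's adjusted p of 0.05 in any of 6 comparisons. For ME against SED 0 of 9 passed, where 2.13% of all 37445 probes did. For AX against SED it was 0 of 9 beside 2.37% of probes, for AX+ME against SED 0 of 9 beside 4.81%, and for the interaction 0 of 9 beside 0.182%. AX+ME against ME and AX+ME against AX called 0 of 9 and also 0% of probes. Unadjusted p-values under 0.05 were held by 2 of the 9 genes in ME, 3 in AX and 3 in AX+ME against SED, by 1 for AX+ME against ME (Igfbpl1), by 0 for AX+ME against AX and by 2 for the interaction. Stmn1, whose spots were saturated on 4 arrays, is counted among these in the 3 comparisons with SED and in the interaction, and its values there are not read as differences. The corresponding shares of all probes were 22.2%, 24.9%, 30.2%, 8.21%, 5.92% and 13.4%. Median log2 differences of the 9 genes from SED were -0.08 in ME, -0.08 in AX and -0.01 in AX+ME, beside -0.04, -0.04 and -0.03 over all probes. The 3 comparisons against SED share its arrays.

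Directions were also counted within the dyes. Against SED, 2 genes were higher in both dyes in ME (24.3% of all probes were), 2 in AX (25.8%) and 0 in AX+ME (29%). Lower in both dyes were 5 genes in ME (40.7% of probes), 6 in AX (39.3%) and 4 in AX+ME (38.6%), with the saturated Stmn1 counted in each. For AX+ME against ME, 2 of the 9 genes were higher in both dyes (Sox4 and Tubb3), where 31.6% of all probes were, and 2 were lower in both (Calb2 and Igfbpl1), where 30.7% were. For AX+ME against AX the counts were 3 higher (31.5% of probes) and 3 lower (26%), and for the interaction 5 higher (37.8%) and 2 lower (21.7%).

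**Figure D1:**
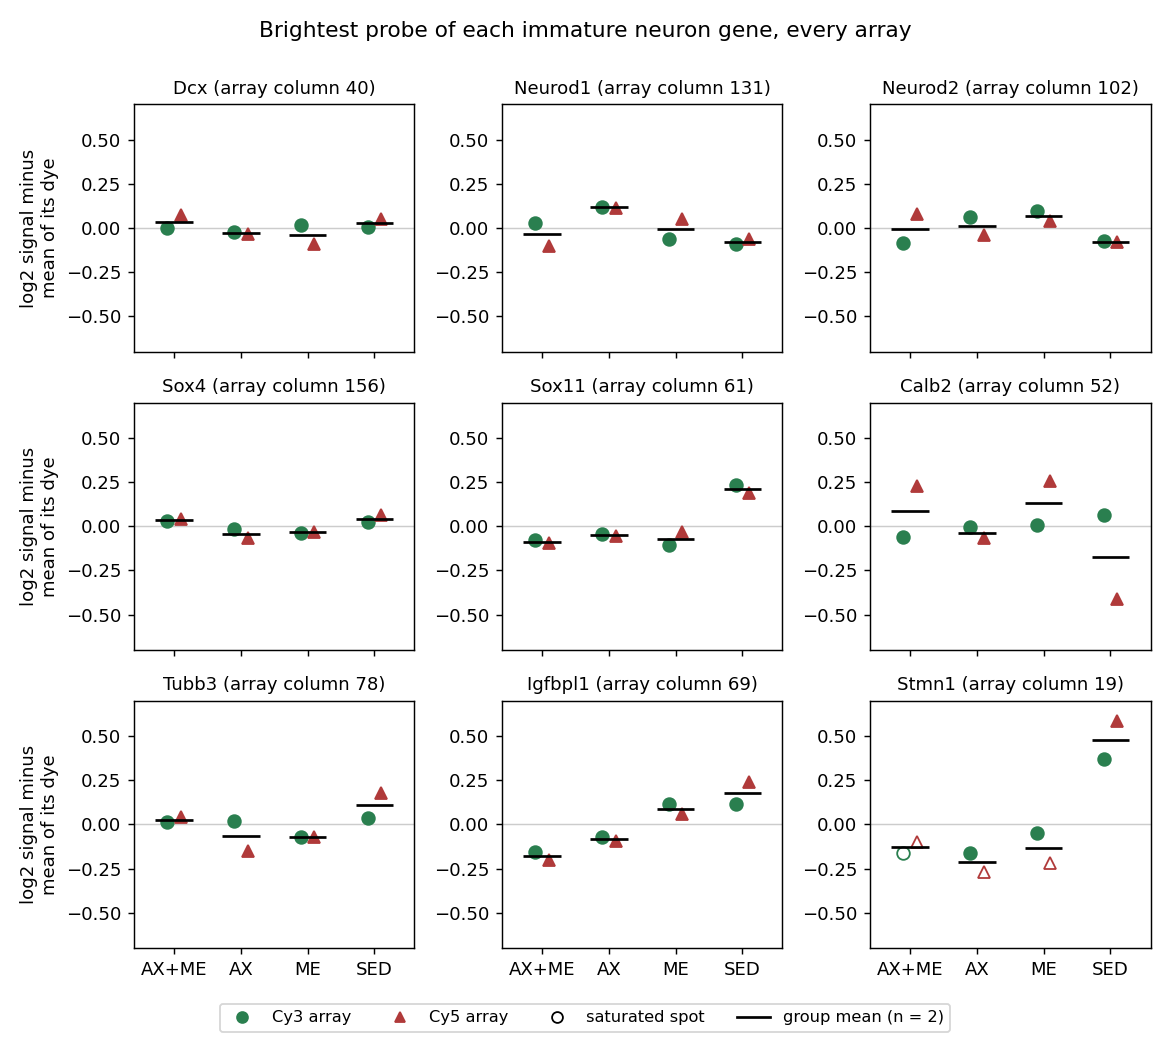
Log2 level of the brightest probe of each gene on each of the 8 arrays (vertical axis, log2 units), after the mean of its dye was taken off. Groups run along the horizontal axis, circles are Cy3 arrays, triangles Cy5 arrays, open symbols saturated spots and bars group means of 2 arrays. Sox11 is highest on both SED arrays, and Igfbpl1 is lowest on both AX+ME arrays.

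Among the transcription factors, the 2 Neurod genes differed little. Neurod1, a basic helix-loop-helix factor that newborn granule neurons need, was measured by a probe in column 131. Its level in the Cy3 and Cy5 samples was -0.85 and -1.01 in AX+ME, -0.76 and -0.79 in AX, -0.94 and -0.86 in ME, and -0.97 and -0.97 in SED. AX was the highest group in both dyes. Its difference from SED, 0.19 log2 (95% interval -0.01 to 0.40), did not pass limma (adjusted p = 0.215). Before detrending it was 0.00, with AX+ME at -0.14 and ME at -0.12 from SED. The other Neurod1 probe, in column 10, gave -0.06 for AX against SED. That probe was lower in AX+ME than in ME in both dyes, with levels of -0.94 and -1.20 in AX+ME and -0.77 and -0.96 in ME (difference -0.20, limma adjusted p = 0.557). The brightest probe gave -0.03 for the same comparison.

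Neurod2, a related factor that stays on in mature excitatory neurons, had levels from 4.20 on the SED Cy5 array to 4.53 on the ME Cy3 array (column 102). It differed from SED by 0.15 in ME, 0.09 in AX and 0.07 in AX+ME (SE 0.0832), and none passed limma (adjusted p = 0.375, 0.551 and 0.589). Before detrending all 3 directions turned, to -0.04 in ME, -0.18 in AX and -0.17 in AX+ME. In AX+ME the Cy3 sample was below its SED partner and the Cy5 sample above it.

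Sox11, a SoxC factor of newly formed neurons, had its highest levels in SED on its brightest probe (column 61), without passing the test. Its levels in Cy3 and Cy5 were -0.41 and -0.35 in AX+ME, -0.37 and -0.31 in AX, -0.44 and -0.28 in ME, and -0.10 and -0.07 in SED. No treated sample overlapped SED, and the treated groups overlapped one another. The differences from SED were -0.30 in AX+ME (95% interval -0.45 to -0.14), -0.26 in AX and -0.28 in ME (SE 0.0591), and none passed limma (adjusted p = 0.0637, 0.0949 and 0.0985). The detrending factor was 0.871 to 0.962 on the SED arrays and 0.918 to 0.983 on the others, and before detrending the differences were -0.37 for AX+ME and -0.40 for ME.

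The other Sox11 probe, in column 34, did not show the same pattern. In Cy3 it was -0.26 in AX+ME, -0.28 in AX, -0.26 in ME and 0.15 in SED. In Cy5 it was -0.30 in AX+ME, -0.26 in AX, -0.26 in ME and -1.09 in SED. SED was thus the highest array in Cy3 and the lowest in Cy5, while the other 6 arrays lay within a narrow range. The difference from SED was 0.19 for AX+ME, with an interval of -0.76 to 1.14. On every array except SED Cy5 this probe was brighter than the one in column 61. Which Sox11 probe counts as the brightest thus rests on that SED Cy5 spot.

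Sox4, the other SoxC gene, was nearly level on its brightest probe (column 156). Its level was -0.28 and -0.53 in AX+ME, -0.33 and -0.64 in AX, -0.35 and -0.60 in ME, and -0.29 and -0.51 in SED, with the Cy3 sample first. AX+ME differed from SED by -0.01 (95% interval -0.15 to 0.14), and AX and ME by -0.08 each. A second probe in column 140 gave -0.00 for AX+ME against SED, with opposite signs in the 2 dyes. No limma test of either probe passed.

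Among the cytoskeletal genes, Dcx depended on the detrending. Dcx encodes doublecortin, a microtubule-associated protein that marks migrating and immature neurons. On its brightest probe (column 40) the level was -0.66 and -0.66 in AX+ME, -0.68 and -0.76 in AX, -0.64 and -0.82 in ME, and -0.65 and -0.68 in SED, in Cy3 and Cy5. ME spanned the values of the other groups, and both AX samples lay at or just below the lowest AX+ME and SED samples. AX+ME differed from SED by 0.01 log2 (95% interval -0.17 to 0.19, limma adjusted p = 0.944), AX by -0.06 and ME by -0.07.

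The same spots before detrending were dimmer in SED. The background-subtracted Dcx intensity was 1086 and 1179 in AX+ME, 964 and 1213 in AX, 915 and 1154 in ME, and 627 and 659 in SED. Both SED samples were below all others. The software had multiplied them by 1.26 and 1.70, while its factor was 0.985 to 1.01 elsewhere. Around this spot, within 8 rows and columns, 18.9% and 18.6% of spots on the SED arrays were at least 0.8 log2 below the other groups after detrending. The median of these surrounding spots stood at -0.16 and -0.23 log2 from the other groups on the SED Cy3 and Cy5 arrays. The Dcx spot itself stood at -0.01 and 0.08. The part of this in the Dcx difference was not tested. With signals before detrending, Dcx was 0.54 higher in AX+ME than in SED (limma adjusted p = 0.0620), 0.47 in AX and 0.46 in ME, where the median over all probes was -0.09, -0.11 and -0.13. Over all settings tried for AX+ME against SED, the adjusted p for Dcx lay between 0.0365 and 1. The differences that leave SED out were nearly the same both ways, at 0.07 with detrending and 0.08 before it for AX+ME against ME.

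A second Dcx probe, in column 30, was close to background and well above it on 6 of 8 arrays. Its Cy3 signals were 43.5 in AX+ME, 37.4 in AX, 32.9 in ME and 29.5 in SED. Its Cy5 signals were 226 in AX+ME, 97.7 in AX, 17.7 in ME and 32.2 in SED, with ME and SED not well above background. The difference of AX+ME from ME was 0.14 log2 in Cy3 and 3.82 in Cy5, so the estimate of 1.98 had an interval of -0.49 to 4.45. One more probe, in column 57, was well above background on 1 array and was not tested.

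Stmn1, which encodes stathmin, a protein that destabilises microtubules, gave no readable difference for most pairs, because its spots were saturated. Its brightest probe (column 19) had levels of 5.30 and 5.21 in AX+ME, 5.30 and 5.04 in AX, 5.41 and 5.09 in ME, and 5.83 and 5.90 in SED. The spot was saturated on both AX+ME arrays and on the Cy5 arrays of AX and ME, so that these levels are lower bounds. No difference of AX+ME from SED, no fold and no interaction is read. No limma test of the probe passed. Only the Cy3 samples of AX and ME can be set against SED, at -0.53 for AX and -0.42 for ME, each from 1 pair with no test.

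On the SED arrays the Stmn1 spot was not saturated. The median pixel was 49634 and 50609 there, against 65497 at saturation, and the detrending factor was 1.40 and 2.06, against 1.03 to 1.12 on the other arrays. Before detrending the same Cy3 pairs differed by -0.12 for AX and -0.10 for ME. The second Stmn1 probe (column 1) was saturated on all 8 arrays, and no difference is read from it.

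Tubb3, the neuronal beta-tubulin, was measured by a single probe in column 78. Its levels were 4.42 and 4.32 in AX+ME, 4.43 and 4.13 in AX, 4.34 and 4.21 in ME, and 4.45 and 4.46 in SED. SED was highest in both dyes by a small margin. Its spot lay 0.01 and 0.26 log2 above the other groups in Cy3 and Cy5, and the median of the spots within 8 rows and columns lay 0.16 and 0.25 above them on the same arrays. The part of this in the difference was not tested. The difference was -0.08 for AX+ME, -0.17 for AX and -0.18 for ME (SE 0.0889), and none passed limma (adjusted p = 0.576, 0.302 and 0.314).

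**Figure D2:**
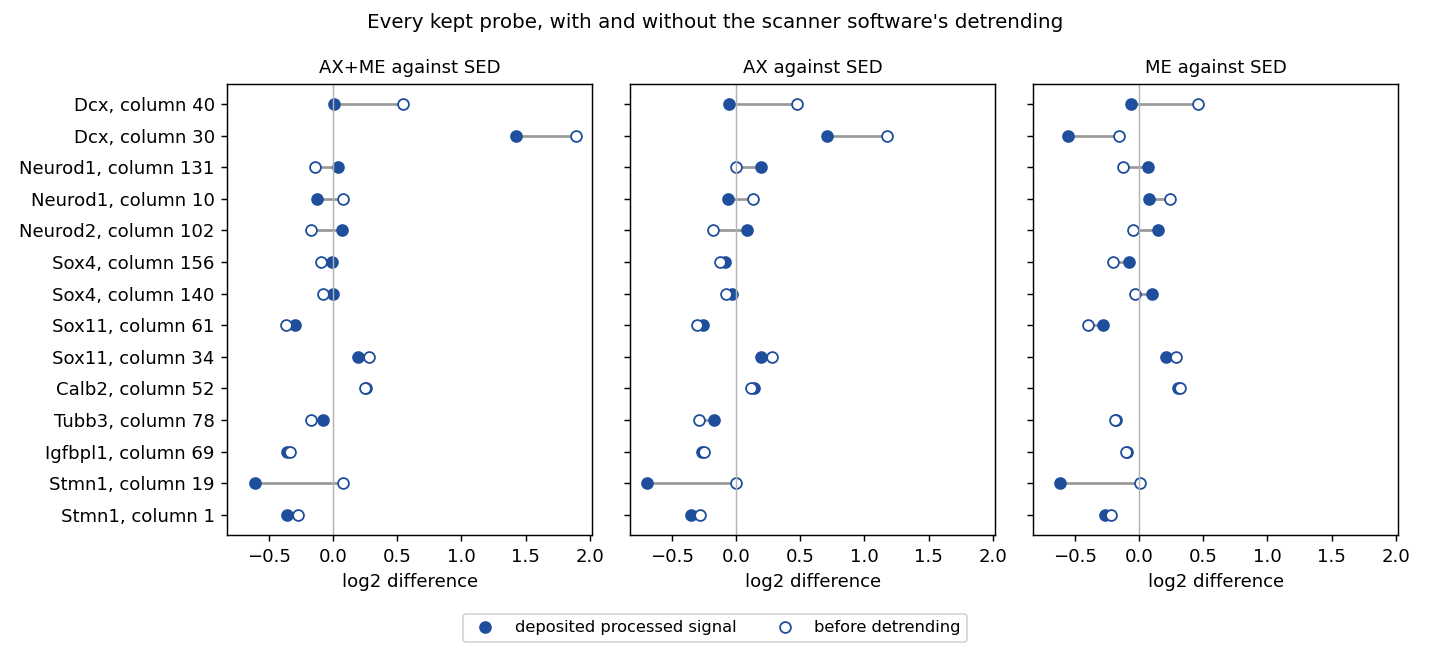
Log2 difference from SED (horizontal axis, log2 units) for each of the 14 tested probes, labelled by gene and array column, with the deposited processed signal (filled) and before detrending (open). For AX+ME against SED, Dcx in column 40 goes to 0.54 before detrending, while Igfbpl1 in column 69 stays at -0.34. The Stmn1 points rest on saturated spots and are not read.

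Igfbpl1, which encodes a secreted protein named for its likeness to insulin-like growth factor binding proteins, had its lowest levels in the groups given astaxanthin, without passing the test. Its probe lies in column 69. The level was -2.65 and -2.62 in AX+ME, -2.57 and -2.52 in AX, -2.38 and -2.36 in ME, and -2.38 and -2.18 in SED. Each astaxanthin sample was below its placebo partner of the same dye and activity, and AX+ME was the lowest group in both dyes.

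The Igfbpl1 difference was -0.26 for AX against SED (95% interval -0.45 to -0.08, limma adjusted p = 0.119) and -0.26 for AX+ME against ME (95% interval -0.45 to -0.08, adjusted p = 0.533). These comparisons use separate arrays and neither passed. AX+ME against SED was -0.36 (adjusted p = 0.0616). ME against SED was -0.09, AX+ME against AX was -0.09, and the interaction was -0.00 (95% interval -0.26 to 0.26). The detrending factor was 0.971 and 1.03 on the SED arrays and 0.971 to 1.01 on the others. Before detrending AX+ME against SED was -0.34 and passed (adjusted p = 0.0491, between 0.0267 and 0.252 over the settings tried). In that fit before detrending, 4473 of 37445 probes passed, against 1801 with detrending, and the median over all probes was -0.09. Within 8 rows and columns of the spot, 0.524% and 5.45% of spots on the SED arrays were dim by the 0.8 log2 measure. The median of these spots lay 0.00 and 0.27 log2 above the other groups on the SED Cy3 and Cy5 arrays, and the Igfbpl1 spot itself 0.17 and 0.33. The part of this in the differences from SED was not tested, and AX+ME against ME uses no SED array.

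Calb2, the calcium-binding protein calretinin, had one probe (column 52) whose dyes disagreed. Its Cy3 levels were -2.10 in AX+ME, -2.05 in AX, -2.04 in ME and -1.98 in SED. Its Cy5 levels were -2.19 in AX+ME, -2.49 in AX, -2.16 in ME and -2.83 in SED. SED was highest in Cy3 and lowest in Cy5, so the difference of 0.26 for AX+ME against SED had an interval of -0.30 to 0.82. Around the spot 11.7% of spots on the SED Cy5 array were dim by the same measure.

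**Figure D3:**
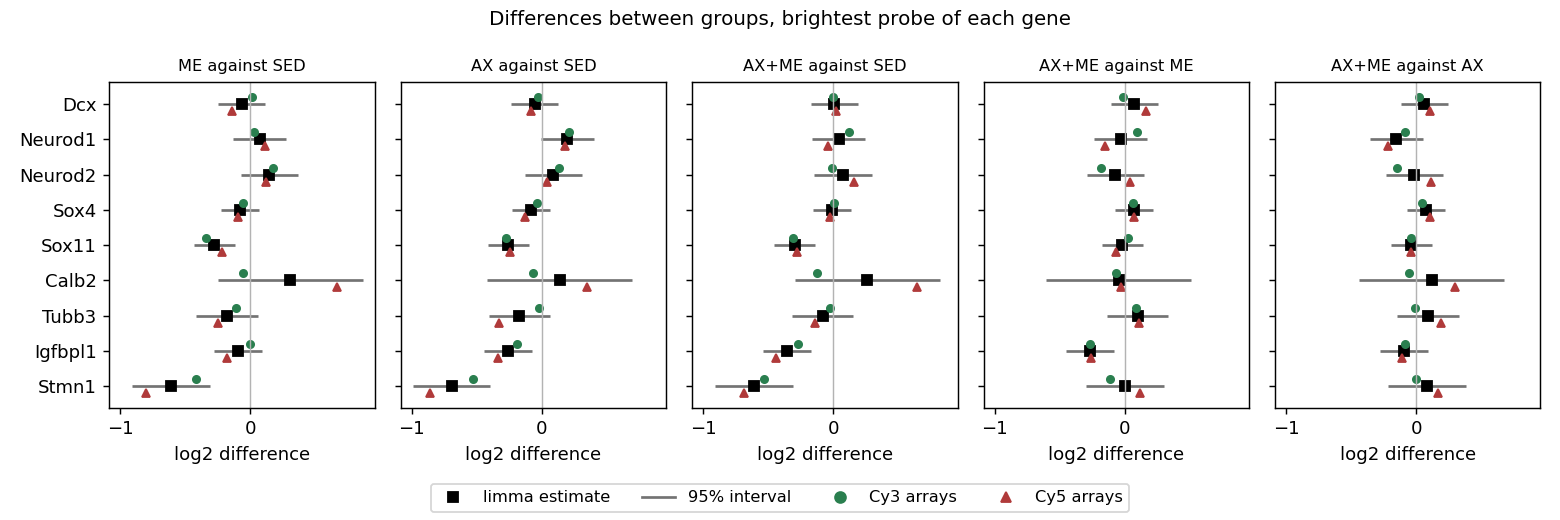
Log2 differences between groups (horizontal axis, log2 units) for the brightest probe of each gene, with limma's estimate (square), its 95% interval (line) and the differences within Cy3 (circle) and Cy5 (triangle). Igfbpl1 is at -0.26 for both AX against SED and AX+ME against ME, and Calb2 shows its dyes apart in the 3 comparisons with SED. The Stmn1 points rest on saturated spots and are not read.

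With the saturated Stmn1 left aside, the highest interaction estimates were those of Tubb3 and Sox11, each highest on the SED array of both dyes. Tubb3 gave 0.27 (limma adjusted p = 0.442) and Sox11 0.24 (adjusted p = 0.347). The other Sox11 probe, in column 34, gave -0.22. In the comparisons without SED, differences were small: between -0.26 (Igfbpl1) and 0.10 (Tubb3) for AX+ME against ME, and between -0.15 (Neurod1) and 0.12 (Calb2) for AX+ME against AX.

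**Figure D4:**
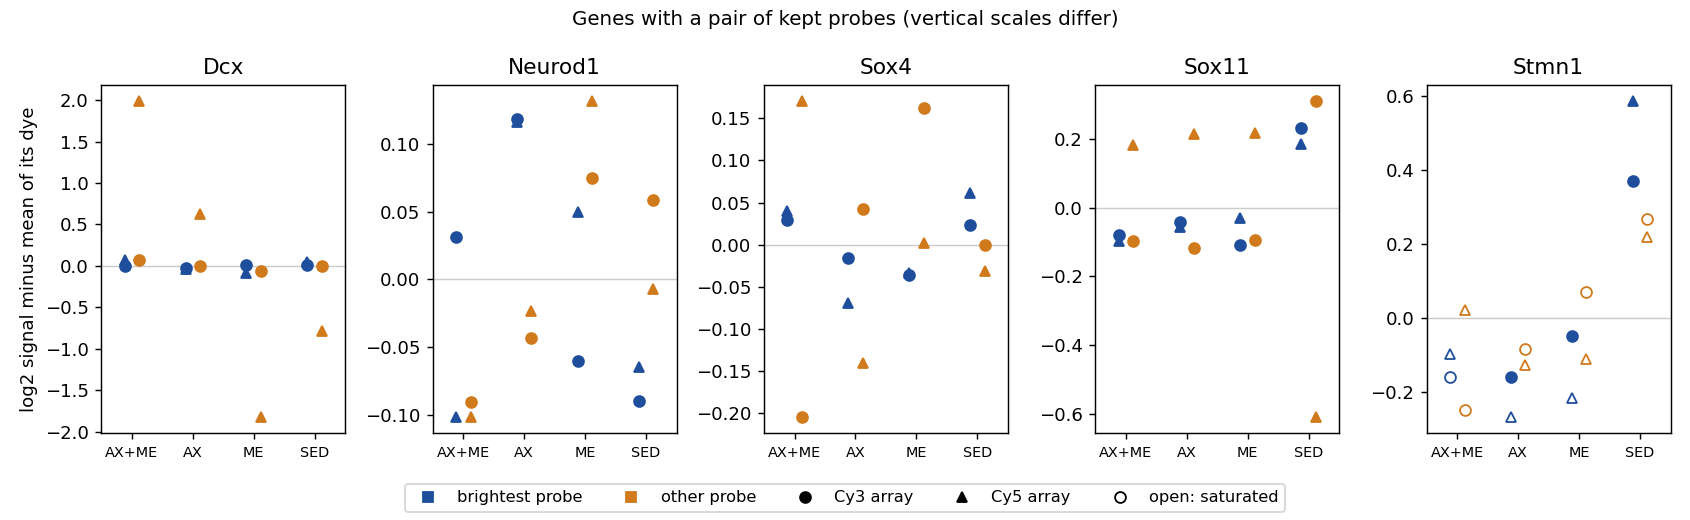
Log2 level on each array after the mean of its dye was taken off (vertical axis, log2 units, a scale of its own per gene), for the 5 genes with a pair of tested probes; blue is the brightest probe, orange the other, circles Cy3, triangles Cy5 and open symbols saturated spots. The Sox11 probes part on the SED Cy5 array, where the other probe stands at -1.09 before centring, and the second Dcx probe spreads widely in Cy5 alone.

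Of 37 other genes of immature neurons and their progenitors, 35 were tested. Against SED, 1 was called higher and 1 lower in each of the 3 comparisons, and 0 were called in the others. Of all probes, 2.13% in ME, 2.37% in AX and 4.81% in AX+ME were called against SED in either direction, and 0.182% for the interaction. The higher one was Bhlhe22, a helix-loop-helix factor of neuronal differentiation (column 20). Its level was 2.27 and 2.09 in AX+ME, 2.38 and 2.31 in AX, 2.25 and 2.30 in ME, and 1.62 and 1.39 in SED. The difference from SED was 0.68, 0.84 and 0.77 for AX+ME, AX and ME (limma adjusted p = 0.0370, 0.0291 and 0.0356). Its SED signals were multiplied by 1.33 and 1.81 in detrending, and before it the differences were 1.28, 1.44 and 1.34.

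The lower one was Dpysl3, which encodes a collapsin response mediator protein of growing axons (column 45). Its level was 2.81 and 2.78 in AX+ME, 2.78 and 2.77 in AX, 2.94 and 2.84 in ME, and 3.48 and 3.59 in SED. The difference was -0.74, -0.76 and -0.65 for AX+ME, AX and ME (limma adjusted p = 0.0233, 0.0256 and 0.0351). The SED factors were 1.19 and 1.49, and before detrending the differences were -0.32, -0.35 and -0.20 and did not pass. Another Dpysl3 probe, in column 37, gave 0.07, -0.06 and 0.24. All probes behind these calls lie below column 70.

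Eomes, the transcription factor of intermediate progenitors, gave the lowest value of this list for AX+ME against ME, -0.36 (limma adjusted p = 0.652), from a dim probe in column 106. Its level was -5.29 and -4.95 in AX+ME, -5.17 and -5.33 in AX, -4.67 and -4.84 in ME, and -4.34 and -4.66 in SED. Both astaxanthin groups were below both placebo groups in each dye, though the AX spot in Cy5 was not well above background. The difference of AX from SED, -0.75, did not pass (adjusted p = 0.0959). Tubb2b, another neuronal tubulin, was -0.23 for AX+ME against ME. The highest values for that comparison were those of St8sia2 (1.32) and Sox12, another SoxC gene (0.17). St8sia2, an enzyme that puts polysialic acid on NCAM, had 0.35 in Cy3 and 2.30 in Cy5, from a dim probe in column 59. Its level was -3.80 and -2.28 in AX+ME, -4.15 and -4.08 in AX, -4.14 and -4.58 in ME, and -4.66 and -3.86 in SED. The AX+ME spot in Cy5 stood apart from all others. For AX+ME against AX the lowest were Bhlhe22 (-0.17) and Prox1 (-0.12), and the highest St8sia2 (1.08) and the actin-binding Tmsb10 (0.15). None passed limma. The values ranked here are from genes with the same sign in both dyes. For the interaction the lowest of these were Tubb2b (-1.04) and Bhlhe22 (-0.93) and the highest Dpysl3 (0.66) and Eomes (0.39), all without passing. St8sia2 stood higher for the interaction at 1.18, with opposite signs in the dyes (-0.16 in Cy3 and 2.52 in Cy5).

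The genes whose levels went most closely with Dcx over the 8 samples, among 15021 compared and with each dye's mean taken off, were Rnf144b (r = 0.976), Pcdh12 (0.954), Xylt1 (0.936), Mmgt2 (0.935) and Lig1 (0.930). Of the 8 other genes, Sox4 (0.701) and Tubb3 (0.624) were highest and Neurod1 (-0.723) lowest. These are descriptions of 8 values from 4 groups and 1 slide, and Dcx itself varied only between -0.09 and 0.07 around its dye mean.

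Markers of other cells were measured beside these genes. Over all probes, 4.81% were called in AX+ME, 2.37% in AX and 2.13% in ME against SED, both directions together. A fit of the 21598 probes from column 70 on called 2 in AX+ME, 0 in AX and 0 in ME. The part of the dim SED areas in the marker values was not tested. Of 16 tested genes of neural stem and progenitor cells, 14 to 16 were well above background on each array, and their summed scaled signal was 63.6 to 64.6 in AX+ME, 63.4 to 64.6 in AX, 66.2 to 67.9 in ME and 69.1 to 71.2 in SED. Of these genes 1 was called higher in each comparison with SED, and 1 was called lower in AX+ME and in AX. All 9 genes of mature granule cells were well above background on every array, and 1 was called higher in each comparison with SED. Their sums were 23.1 to 23.4 in AX+ME, 24.0 to 24.7 in AX, 24.0 to 24.7 in ME and 20.1 to 20.5 in SED. Calb1 had the largest difference from SED, at 0.79 in AX+ME, 0.99 in AX and 0.89 in ME. Lower than SED were 6 of the 9 in AX+ME, 5 in AX and 6 in ME. Of 14 choroid plexus genes, all above background on every array, 9 were called lower in AX+ME, 0 in AX and 5 in ME against SED, with sums of 63.1 to 64.9 in AX+ME, 69.7 to 78.3 in AX, 62.0 to 72.5 in ME and 69.3 to 87.3 in SED. None of the 6 tested mossy cell markers, among which is Calb2, was called, and their sums were 32.0 to 32.4 in AX+ME, 32.1 to 32.2 in AX, 33.3 to 34.8 in ME and 31.2 to 33.9 in SED. Striatal markers, 1 of 9 called lower in each comparison with SED, summed to 32.1 in AX+ME, 29.3 to 30.0 in AX, 29.7 to 30.6 in ME and 34.7 to 45.5 in SED. The part of these cells in the values of the 9 genes was not tested.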

How the data were processed

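Total RNA of mouse hippocampus was hybridised to 8 arrays of 1 SurePrint G3 Mouse GE 8x60K slide, 1 sample per array in its own dye. Per the submitters' processing notes, the scanner software was Agilent Feature Extraction, version 11.0.1.1. Its deposited processed signals are linear intensities with background subtracted and a multiplicative detrending applied in each array, per the file headers. The deposited matrix holds the same intensities rounded. A spot counts as well above background or saturated as the software marked it.

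Control and non-uniform spots were left out, spots of a probe averaged, and symbols assigned by accession. Each signal was scaled by its array's 75th percentile over probes, floored at 0.005, and log2-transformed. A probe was kept (37445 were) if some group had it well above background on each of its arrays. limma 3.58.1 (R 4.3.3) fitted a term per group and a term for dye, with 3 residual and 1.52 prior degrees of freedom. Tests are two-sided, Benjamini-Hochberg adjusted over all kept probes. The replicate number is the dye, so the dye term is the pairing of samples across groups. The fit was tested on simulated data. The members and lists were chosen with earlier results of these data known. Named neighbours are every list gene past the threshold or, where none passed, the 2 largest differences up and the 2 down with the same sign in both dyes, and Eomes against SED was added after its values were seen. Tested alternatives were the background correction (normexp on median signals, without detrending), normalization, filters, probe choice, dye term, prior trend, columns from 70 on, each array left out and, added after seeing the data, signals before detrending and leaving out both SED arrays. The area within 8 rows and columns of a spot was also chosen after seeing the data. With 2 arrays per group, the number of arrays limits the precision. Probe and protein sequences were not used here.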

Additional observations from a re-analysis of the deposited data

Results flagged for a closer look

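Each array also carries a channel that held no sample. Over the 8 arrays, probes of the 9 genes were marked well above background in that channel 14 times, between 1 and 3 on each array, where 0.909% to 1.53% of all spots were. The highest such signal of these probes was 10.1 to 19.0 per array. No comparison used this channel.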

How the results depend on the processing

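For AX+ME against ME and AX+ME against AX, 0 of the 9 genes were called under all 21 other settings, among them the fits without both SED arrays (limma, 4623 and 3320 probes at an unadjusted p under 0.05). Against SED, 0 genes were called without the replicate block (no dye term), with quantile normalization, with the other 75th percentile, without a filter, with the mean of a gene's probes, with the deposited matrix and in the fit from column 70, which held 4 of the 9 genes. Counts above 0 came from other settings. An intensity trend in the prior variance called, against SED, 2 genes in ME, 2 in AX and 3 in AX+ME. It called 2134, 2962 and 4379 of all 37445 probes there. Keeping only probes above background on all arrays called 1 for AX and 3 for AX+ME, beside 1835 and 3163 of 32769 probes. For AX+ME against SED, normexp called 3, the brightest probe per gene 1 (Stmn1) and signals before detrending 1 (Igfbpl1). The brightest probe per gene called 2119 of 27192 in that comparison. Leaving out an array leaves 1 sample in a group, and for these fits against SED only differences are given here. Over them, Igfbpl1 ran from -0.44 to -0.27 in AX+ME, -0.34 to -0.18 in AX and -0.17 to -0.01 in ME. All Stmn1 calls rest on saturated spots and are not read as differences. The cause of these changes was not tested. The direction of Igfbpl1 and Sox11 against SED held under all 19 settings in each of the 3 comparisons. Several settings, such as the prior trend or leaving out an array of a group not compared, cannot change the estimate. The other Sox11 probe, not a setting of its own, gave 0.19 in AX+ME, 0.20 in AX and 0.21 in ME. Sox11 ranged from -0.37 to -0.05 in AX+ME, -0.31 to -0.03 in AX and -0.40 to -0.03 in ME, each nearest 0 with the mean of both probes (limma adjusted p = 0.877, 0.938 and 0.939; lowest over settings 0.0290, 0.0449 and 0.0448). Dcx for AX+ME against SED ranged from -0.04 to 0.72. The highest came with the mean of its tested probes, of which the one close to background gave 1.43. With normexp, which takes undetrended signals, the 3 called genes for AX+ME were Dcx (0.55), Sox11 (-0.32) and Igfbpl1 (-0.29), where the median over all probes was -0.12. Calls over all probes varied as well: for AX+ME against SED they numbered 1801, and 6696 with normexp, 4473 before detrending, 1200 without the replicate block and 2 from column 70. Signal over background limits the dim Dcx probes, and saturation limits Stmn1.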
